A study of Homo sapiens with 24 samples.

Results

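Ribosome biogenesis factors are the proteins that make ribosomes but are not part of the finished particle. The set described here has 41 genes, named by their function and chosen with earlier results of these data known: box C/D and H/ACA snoRNP proteins, abundant nucleolar proteins, RNA polymerase I subunits, small and large subunit assembly factors and other nucleolar factors. Their transcript rows in the deposited count table were summed per gene. Of the 41 genes, 40 had rows, from 166 of the 119207 transcripts in the table, and BOP1 was not analysed here. All 40 passed the filter on low counts, among 15337 genes tested of 33127 with rows.

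The samples were A549 cells, an established human lung adenocarcinoma line, so every library came from 1 line. Cells received 100 nM dexamethasone (dex), a synthetic glucocorticoid dissolved in ethanol, or ethanol alone (EtOH, 0.02% v/v) as vehicle, and poly-A RNA was sequenced 1, 3, 5, 7, 9 and 11 h after addition. Each of the 12 groups of agent and time had 2 libraries, 24 in all, whereas the study's methods describe triplicates. The labels' treatment text names 1 h for every library, and the times used here come from the label for duration of treatment. The replicates are labelled biological, with nothing on separate cultures, so the spread between them may in part be technical.

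Ribosomes are assembled in the nucleolus. RNA polymerase I transcribes a long precursor RNA, snoRNPs guide its chemical modification, and separate sets of assembly factors fold, cut and package the precursors of the small and large subunits. Growing cells spend much of their energy on this pathway, and MYC is a well-known activator of many of its genes. Glucocorticoids act through the glucocorticoid receptor, a transcription factor that binds DNA after it has bound hormone.

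The libraries held 6708864 to 13748598 mapped reads with dex and 7813353 to 13619043 with EtOH, and the 40 members took 0.685% to 0.778% of the reads matched to genes. Known dex targets checked the labels: FKBP5 was higher with dex from 3 h, with a log2 fold change of 3.38 at 3 h and 4.16 at 9 h, and TSC22D3 was higher from 1 h on (3.24 at 1 h). Epithelial KRT8 and KRT18 exceeded 1500 CPM, that is, counts scaled to library size, in every library and EPCAM was low, at 4.28 to 11.98 CPM. KRT19 was low too, at 8.42 to 22.9 CPM, and CDH1 had 30.6 to 63.2 CPM, below CDH2 at 150 to 192. The T cell gene CD3E had 0 counts, the leukocyte gene PTPRC at most 3, and the summed markers of leukocytes, endothelium and fibroblasts came to 12.96 to 34.4 CPM with dex and 21.2 to 31.5 CPM with EtOH. Within that sum the fibroblast gene COL1A1 alone had 5.25 to 23.2 CPM. Some libraries stood apart in how their counts depended on the G+C content of transcripts. The slope of log2 CPM, relative to the mean over all libraries, per 10 percentage points of G+C was highest in dex 11 h replicate 2 (0.219) and EtOH 9 h replicate 2 (0.144). It was lowest in dex 1 h replicate 1 (-0.149), EtOH 7 h replicate 1 (-0.133) and EtOH 3 h replicate 1 (-0.130). Where leaving out 1 of these libraries ended a call or moved a called value by over 1.5 times, the value without it is given.

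Below, values for single libraries are CPM scaled by edgeR's TMM factors. A log2 fold change is dex over EtOH at the same time, with its standard error (SE), and a gene was called when the Benjamini-Hochberg adjusted p of edgeR's quasi-likelihood test, over all 15337 genes, was at most 0.1. In bulk RNA, fewer cells with a transcript and less of it per cell cannot be told apart.

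The members' estimated changes between dex and EtOH were under 2-fold at every time. More of the calls were lower than higher at 3, 5 and 9 h and more higher at 7 h. For some members the 95% interval of the log2 fold change passed 2-fold, such as DDX49 at 3 h (0.39 to 1.16). At 1 h none of the 40 was called by edgeR, beside 0.417% of all genes lower and 0.639% higher, with 2 members at an unadjusted p under 0.05 and 0 called by DESeq2. At 3 h, 3 members were lower and 1 higher (7.5% and 2.5% of the 40), beside 5.65% and 8.42% of all genes. At 5 h, 5 were lower and 2 higher (12.5% and 5%), beside 12.6% and 12.4% of all genes. At 7 h, 4 were lower and 7 higher (10% and 17.5%), beside 13.5% and 14.7%. At 9 h, 5 were lower and 1 higher (12.5% and 2.5%), beside 8.96% and 10.8%. At 11 h edgeR again called none, beside 3.33% of all genes lower and 5.8% higher, with 2 members at an unadjusted p under 0.05 and 0 called by DESeq2.

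The shares called lower were near those of all genes, and the shares called higher were below them except at 7 h. The median log2 fold change of the 40 was 0.00 at 1 h, -0.08 at 3 h, -0.05 at 5 h, 0.02 at 7 h, -0.10 at 9 h and 0.04 at 11 h, and that of all genes stayed between -0.01 and 0.01. Of the 240 pairs of a member and a time, 28 were called, 17 lower and 11 higher. No pair had an estimated change of 2-fold, and the largest log2 fold change was 0.77. These calls fell on 19 members, 12 of them lower and 7 higher and none in both directions, which compares with 22.5% of all genes lower and 23.3% higher at 1 or more times. The other 21 members were called at no time.

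**Figure D1:**
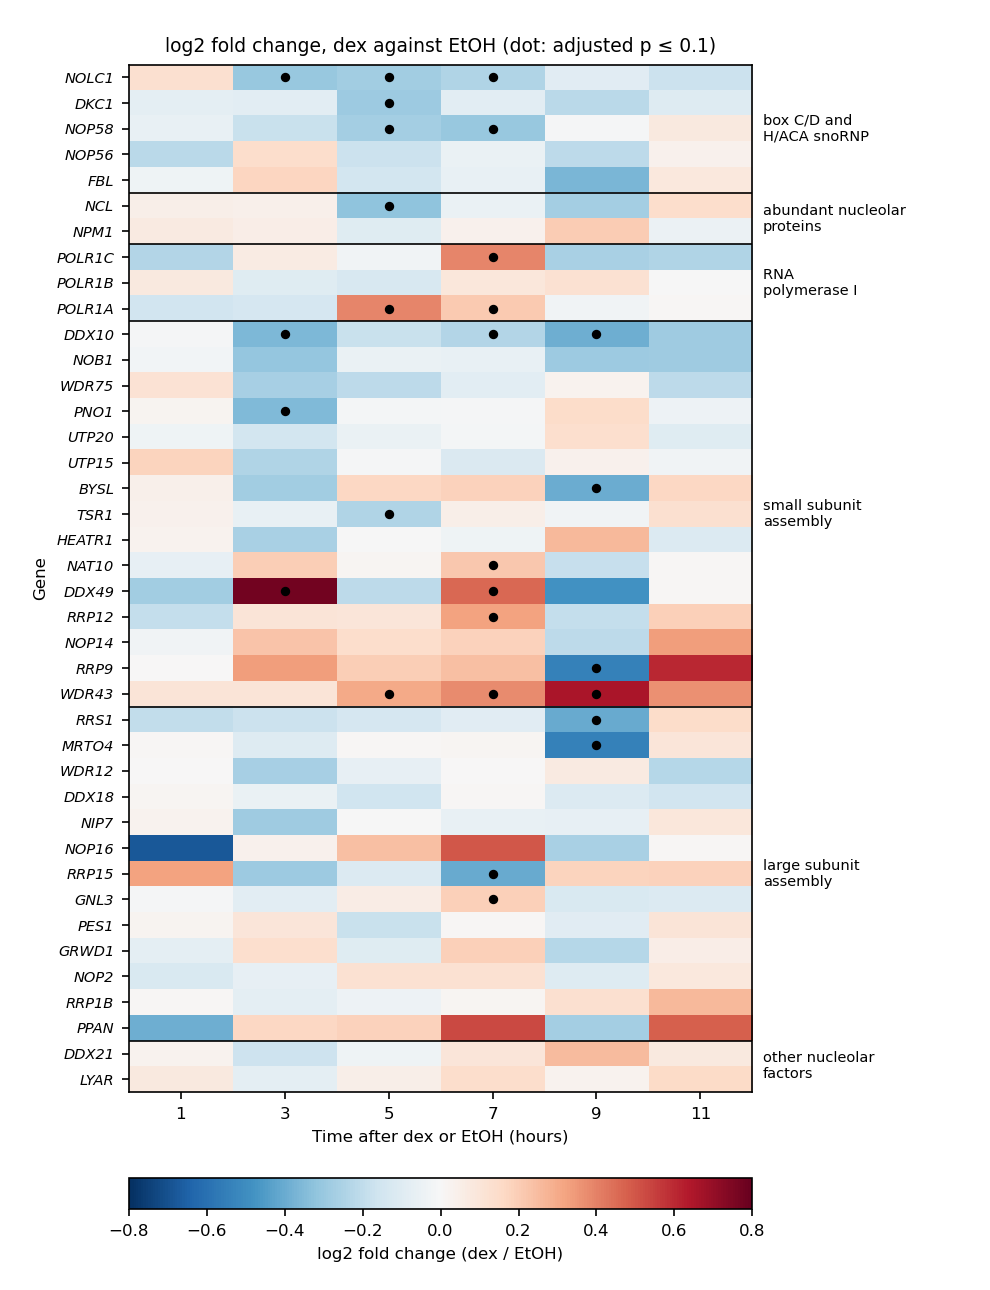
Log2 fold change, dex over EtOH, of the 40 members (rows, grouped by role) at the 6 time points in hours (columns), on a colour scale from blue (lower with dex) to red (higher). Dots mark the 28 pairs with an adjusted p of at most 0.1. WDR43 carries 3 dots on red, NOLC1 and DDX10 carry 3 each on blue, and the columns for 1 and 11 h carry none.

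Of the 19 members called, 13 were called at 1 time, 3 at 2 times and 3 at 3 times. The 3 called most often were WDR43 (higher at 5, 7 and 9 h), NOLC1 (lower at 3, 5 and 7 h) and DDX10 (lower at 3, 7 and 9 h). Those called at 2 times were NOP58 (lower at 5 and 7 h), POLR1A (higher at 5 and 7 h) and DDX49 (higher at 3 and 7 h). DESeq2, which called fewer of all genes too, called WDR43 at 5, 7 and 9 h, NOLC1 at 3 h and DDX10 at no time. It called NOP58 at 7 h, POLR1A at 5 h and DDX49 at 3 h. In each role, 2 members were picked by rule for their values in every library, the one with the most CPM in EtOH and the one with the smallest p for any dex effect. DDX10, NOP58, DDX49 and the members called once other than DKC1, NCL, POLR1C and RRS1 fall outside that rule and were picked after their values were seen.

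WDR43, a subunit of the complex that binds the start of the nascent rRNA precursor, was called higher with dex at 3 of the 6 times. At 1 h its EtOH libraries were at 153 and 143 CPM and its dex libraries at 172 and 146, and at 3 h at 158 and 141 with EtOH and 162 and 158 with dex. At both times the agents overlapped and WDR43 was not called. At 5 h the EtOH libraries were at 130.0 and 139 CPM and the dex libraries at 169 and 163, a log2 fold change of 0.30 ± 0.10 (SE, edgeR adjusted p = 0.0282). At 7 h they were at 148 and 137 CPM with EtOH and 177 and 192 with dex (0.38 ± 0.08, edgeR adjusted p = 0.000431). From 5 h on the dex libraries lay above the EtOH libraries without overlap.

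The distance was widest at 9 h, where the EtOH libraries of WDR43 had 127 and 132 CPM and the dex libraries 202 and 200.1. The log2 fold change there was 0.65 ± 0.10 (SE), a rise of 57.4%, with an edgeR adjusted p of 0.000839. At 11 h the values were 136 and 139 CPM with EtOH and 186 and 164 with dex, and the log2 fold change of 0.36 missed the threshold (edgeR adjusted p = 0.150, 95% interval 0.08 to 0.65). The dex effect on WDR43 differed between the times (edgeR adjusted p of the interaction = 0.0583, called for 15.4% of all genes). The calls of WDR43 at 7 and 9 h held under all 12 alternatives tried, whose log2 fold changes ran from 0.31 to 0.45 and from 0.54 to 0.68. WDR43 lies at chr2:28894643-28948222, plus strand (GRCh38, GENCODE 29), and 1 of its 5 counted transcripts held 83.6% of its reads.

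The bases upstream of the WDR43 start are printed because it is the member with the most repeated rise (RefSeq, GRCh38.p14, chr2:28894417-28894642, plus strand, 226 bases that end where the first annotated exon starts, 59.3% G+C). Capitals mark AGAACA, the letters of 1 arm of the glucocorticoid receptor's palindrome.
WDR43 upstream: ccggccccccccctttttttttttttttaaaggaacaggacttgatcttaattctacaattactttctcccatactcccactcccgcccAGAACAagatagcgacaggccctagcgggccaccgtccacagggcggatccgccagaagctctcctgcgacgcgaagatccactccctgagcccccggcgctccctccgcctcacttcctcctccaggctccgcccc

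**Figure D2:**
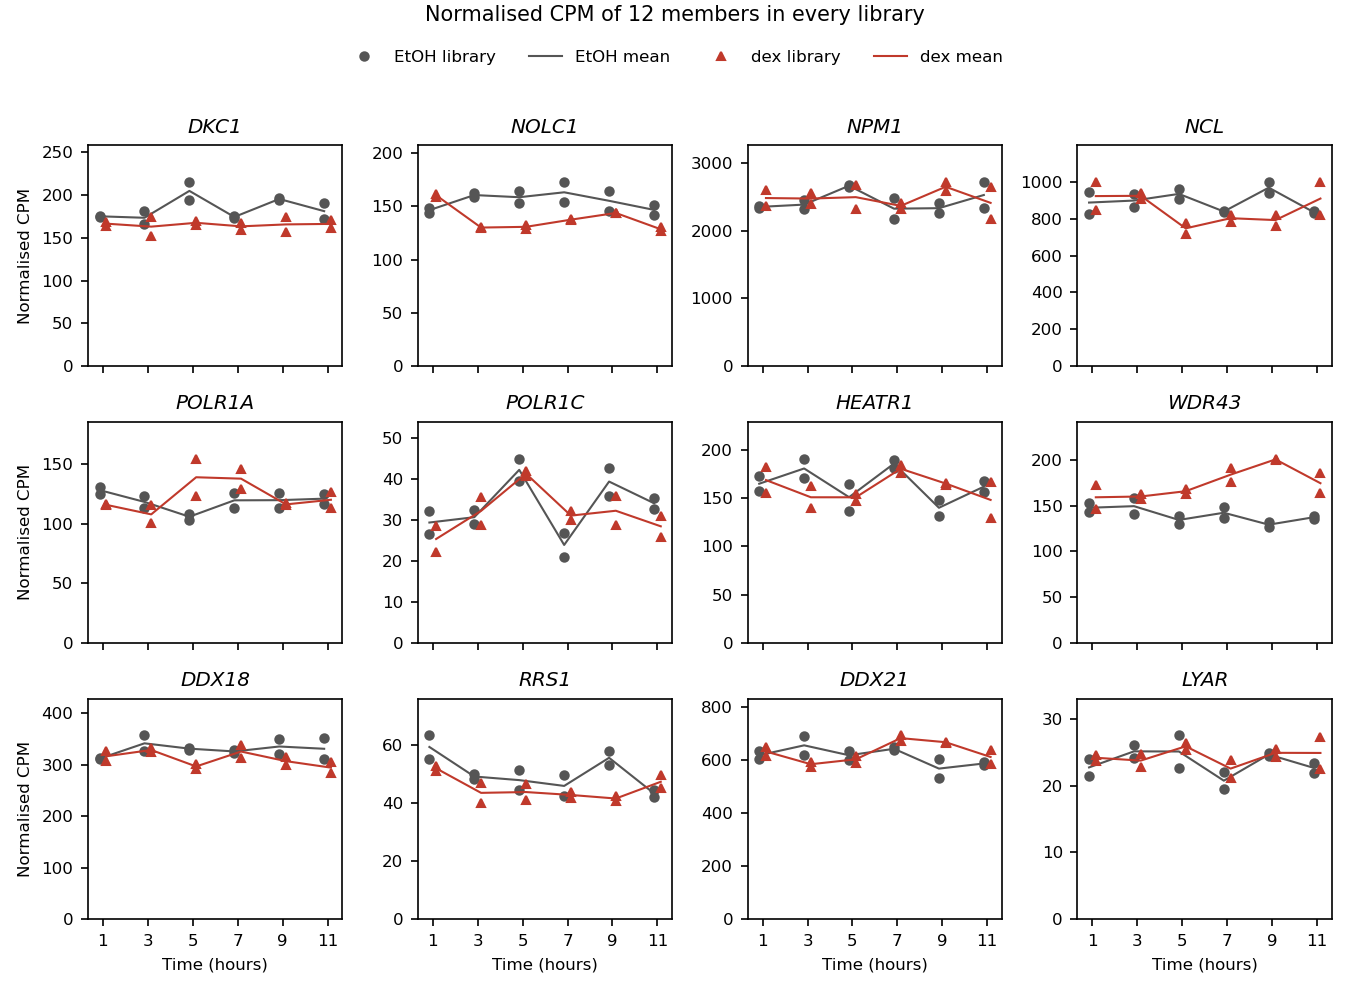
Normalised CPM (y axis, from 0) over time in hours (x axis) of the 12 members picked by rule, with a grey circle for each EtOH library, a red triangle for each dex library and lines through the group means (n = 2). WDR43 with dex rises to 202 and 200.1 CPM at 9 h while EtOH stays below 160, NOLC1 with dex lies below EtOH from 3 h on, and NPM1 and LYAR overlap at most times.

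DDX10, an RNA helicase of small subunit assembly at chr11:108665025-108940930, plus strand, moved the other way. At 1 h its agents coincided, with 56.1 and 61.7 CPM in EtOH and 56.1 and 61.5 in dex. At 3 h the EtOH libraries were at 53.5 and 59.8 CPM and the dex libraries at 44.2 and 44.1 (log2 fold change -0.36 ± 0.12, edgeR adjusted p = 0.0489), and at 9 h at 61.2 and 57.99 with EtOH against 43.7 and 45.98 with dex (-0.39 ± 0.12, edgeR adjusted p = 0.0498). The change at 7 h was smaller (-0.23 ± 0.10, edgeR adjusted p = 0.0952). From 3 h to 11 h every dex library of DDX10 was below both EtOH libraries of its time. The 5 and 11 h values were not called (-0.18 and -0.29). A negative log2 fold change at all 6 times was seen for 3 members, DDX10, DKC1 and NOB1, and for 7.67% of all genes. DDX10 is the small subunit factor with the most falls called by edgeR, none of them called by DESeq2. The 206 bases before its first annotated exon are given for that reason (RefSeq, GRCh38.p14, chr11:108664819-108665024, plus strand, 60.7% G+C). They hold neither AGAACA nor CACGTG, so no letters are in capitals.
DDX10 upstream: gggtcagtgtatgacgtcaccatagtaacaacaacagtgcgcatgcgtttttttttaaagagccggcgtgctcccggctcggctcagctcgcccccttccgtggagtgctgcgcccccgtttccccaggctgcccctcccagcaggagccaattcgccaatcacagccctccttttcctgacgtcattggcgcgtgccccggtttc

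Among the other small subunit factors, DDX49, an RNA helicase, had the largest change of any pair. At 3 h its EtOH libraries were at 8.02 and 12.01 CPM and its dex libraries at 18.8 and 15.9, a log2 fold change of 0.77 ± 0.19 (edgeR adjusted p = 0.00613), and at 7 h it was higher again (0.46 ± 0.17, edgeR adjusted p = 0.0445). The EtOH libraries alone moved by as much: DDX49 was at 23.4 and 23.04 CPM at 5 h and 26.2 and 17.7 at 9 h, and at 9 h its log2 fold change was -0.49 and not called (edgeR adjusted p = 0.134). DDX49 has the second highest G+C content of the members, 61.7%. Without EtOH 3 h replicate 1, the library of low slope, the log2 fold change at 3 h was 0.53 and was not called.

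HEATR1, a scaffold of the early small subunit precursor, had the most CPM of its role and was called at no time. At 3 h it was at 191 and 171 CPM with EtOH and 139.7 and 163 with dex (-0.26, edgeR adjusted p = 0.123), and at 9 h at 149 and 132 with EtOH and 167 and 165 with dex (0.26, edgeR adjusted p = 0.142). The libraries did not overlap at either time, in opposite directions, and overlapped at 1, 5, 7 and 11 h.

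The remaining 11 small subunit factors were called once or not at all. At 3 h PNO1, the partner of the nuclease NOB1, was lower (-0.35), but without EtOH 3 h replicate 1 the log2 fold change was -0.16 (edgeR adjusted p = 0.708) and without dex replicate 1 it was -0.20, neither called. At 5 h TSR1, a GTPase-like factor of the late small subunit precursor, was lower (-0.24). At 7 h NAT10, an acetyltransferase that modifies rRNA, and RRP12, which acts in export of the precursor, were higher (0.22 and 0.32). At 9 h RRP9, a protein of the U3 snoRNP, and BYSL, a late assembly factor, were lower (-0.54 and -0.40). Both had an edgeR adjusted p of 0.0998, at the edge of the threshold, and both lost the call under 6 of 12 alternatives. Without EtOH 9 h replicate 2, the library of high slope, the values were -0.39 and -0.26, neither called, and without dex replicate 1 that of RRP9 was -0.36. NOP14, UTP15, UTP20, WDR75 and NOB1 were called at no time, with log2 fold changes from -0.31 (NOB1, 3 h) to 0.33 (NOP14, 11 h). RRP9 had the highest value at 11 h, 0.60, with a 95% interval of 0.00 to 1.21 (edgeR adjusted p = 0.290).

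Of the 5 snoRNP proteins, 3 were called lower at 1 or more times and none higher, beside 22.5% of all genes lower and 23.3% higher at 1 or more times. NOLC1, a phosphoprotein that carries snoRNPs to the nucleolus, was at 163 and 158 CPM with EtOH and 129.7 and 130.4 with dex at 3 h (log2 fold change -0.30 ± 0.10, edgeR adjusted p = 0.0459). At 5 h it was at 153 and 164 CPM with EtOH against 132 and 129 with dex (-0.28 ± 0.10, edgeR adjusted p = 0.0476), and at 7 h at 173 and 154 against 138 and 137 (-0.24 ± 0.08, edgeR adjusted p = 0.0290). Its dex libraries were below both EtOH libraries at every time from 3 h on, and above both at 1 h (149 and 144 with EtOH, 162 and 159 with dex, not called). At 9 and 11 h the log2 fold changes were -0.09 and -0.17, neither called. The call at 3 h was lost when any 1 of the 4 libraries was left out, with log2 fold changes of -0.36 to -0.29 over the 12 alternatives. NOLC1 lies at chr10:102152176-102163871, plus strand.

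DKC1, the enzyme that turns uridine into pseudouridine in H/ACA snoRNPs, was called lower at 5 h, at 215 and 195 CPM with EtOH and 170.0 and 165 with dex (-0.29 ± 0.10, edgeR adjusted p = 0.0363). Its dex libraries spanned only 152 to 174 CPM over the 6 times and its EtOH libraries 166 to 215 CPM, with the highest EtOH value at 5 h. NOP58, a core box C/D protein, was at 156 and 161 CPM with EtOH and 131 and 132 with dex at 5 h, and at 161 and 163 with EtOH against 129 and 133 with dex at 7 h. Its log2 fold changes at those times were -0.27 ± 0.10 and -0.30 ± 0.08, with edgeR adjusted p values of 0.0550 and 0.00401. Its libraries overlapped at 1, 9 and 11 h. NOP56, the partner of NOP58, and fibrillarin (FBL), the methyltransferase of the box C/D snoRNP, were called at no time and ranged from -0.37 (FBL, 9 h) to 0.17 (FBL, 3 h).

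Of the 2 abundant nucleolar proteins, NCL was called at 5 h and NPM1 at no time. Scaled by transcript length, nucleophosmin (NPM1) was the highest in EtOH, at 1687 ± 109 CPM per kilobase of transcript (SD over 12 libraries), followed by nucleolin (NCL) at 395 ± 23.2 and FBL at 173 ± 28.1, and PPAN was the lowest at 3.83 ± 0.849. NPM1, a histone chaperone of the nucleolus, had 2166 to 2713 CPM with EtOH and 2174 to 2717 with dex. At 9 h its dex libraries (2717 and 2580) lay above EtOH (2402 and 2263), and the log2 fold change of 0.20 was not called (edgeR adjusted p = 0.285, 95% interval -0.04 to 0.45).

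NCL, an RNA-binding protein of rRNA transcription and processing, was lower at 5 h. Its EtOH libraries had 908 and 962 CPM and its dex libraries 719 and 777, a log2 fold change of -0.32 ± 0.10 (SE, edgeR adjusted p = 0.0192). At 9 h the dex libraries were again below (939 and 999 with EtOH and 763 and 822 with dex), with a log2 fold change of -0.27 that missed the threshold (edgeR adjusted p = 0.137). At 11 h the dex libraries were at 821 and 998 CPM, around the EtOH values of 830.5 and 841, and the groups overlapped.

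Among the 3 RNA polymerase I subunits, the largest, POLR1A, was higher at 5 and 7 h. At 5 h its EtOH libraries had 103 and 108 CPM and its dex libraries 155 and 123 (0.39 ± 0.11, edgeR adjusted p = 0.00659), and at 7 h 126 and 113 with EtOH against 129 and 146 with dex (0.21 ± 0.09, edgeR adjusted p = 0.0742). At 1 h the dex libraries (115 and 116) were below EtOH (125 and 131) and not called, and at 3, 9 and 11 h they overlapped. The rise at 5 h rested more on 1 dex library than on the other: without dex 5 h replicate 1, which had the highest value, the log2 fold change was 0.22 and was not called. The dex effect on POLR1A differed between times (edgeR adjusted p = 0.0783).

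POLR1C, a subunit shared with RNA polymerase III, was higher at 7 h, at 20.9 and 26.8 CPM with EtOH and 32.2 and 29.9 with dex (0.39 ± 0.13, edgeR adjusted p = 0.0199). Its EtOH mean at 7 h was its lowest, against libraries of 44.96 and 39.5 at 5 h, and the dex libraries at 7 h were within the range of the other times. Exons of POLR1C overlap those of XPO5 on the opposite strand, and whether counting used the strand is not given in the sources used here, so its reads are uncertain. POLR1B, the other large catalytic subunit, was called at no time, with log2 fold changes of -0.13 to 0.12.

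Of the 13 large subunit factors with rows, 4 were called, each at 1 time, 3 of them lower and 1 higher, beside 22.5% of all genes lower and 23.3% higher at 1 or more times. RRS1, which helps to place a small rRNA in the large subunit precursor, was at 53.2 and 57.9 CPM with EtOH and 42.5 and 40.6 with dex at 9 h (-0.40 ± 0.13, edgeR adjusted p = 0.0493). Its dex libraries were also below both EtOH libraries at 1 and 3 h, and above both at 11 h, without a call. MRTO4, a nuclear counterpart of a ribosomal stalk protein, was lower at 9 h too, at 40.9 and 54.4 CPM with EtOH and 33.2 and 31.4 with dex (-0.54 ± 0.15, edgeR adjusted p = 0.0324), and its exons overlap those of EMC1 on the opposite strand.

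At 7 h nucleostemin (GNL3), a nucleolar GTPase, was higher (0.19, edgeR adjusted p = 0.0757), the smallest change called, and RRP15 was lower (-0.40, edgeR adjusted p = 0.0672). RRP15 had the lowest G+C content of the members, 35.2%, and its EtOH libraries at 7 h stood far apart, at 151 and 109 CPM. Without EtOH replicate 1 its log2 fold change at 7 h was -0.14 and was not called, and over the 12 alternatives it ran from -0.62 to -0.14 and lost the call in 7. DDX18, a helicase and the large subunit factor with the most CPM, was at 311 to 357 CPM with EtOH and 283 to 338 with dex and was called at no time. Its lowest log2 fold change was -0.16 at 5 h, with a 95% interval of -0.36 to 0.04. PES1 and WDR12, partners in a complex with BOP1, were not called either and ranged from -0.27 (WDR12, 3 h) to 0.10 (PES1, 11 h).

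The remaining large subunit factors, RRP1B, NOP2, NOP16, NIP7, PPAN and GRWD1, were called at no time. NOP16 and PPAN, at about 5 CPM, had the widest swings, from -0.68 (NOP16, 1 h) to 0.53 (PPAN, 7 h), and neither end was called (edgeR adjusted p = 0.610 and 0.150). Exons of NOP16 overlap those of HIGD2A, and PPAN shares exons with P2RY11 on the same strand, so both are uncertain. HEATR1, TSR1, GNL3, NIP7, UTP15, NOP14, NOB1, PNO1, RRP12, PES1 and WDR12 also overlap genes on the opposite strand. RRS1 and GRWD1 overlap genes on the same strand. DDX21, a helicase that links RNA polymerase I to rRNA processing, had 605 and 533 CPM with EtOH and 669.7 and 667 with dex at 9 h (0.25, edgeR adjusted p = 0.164), the only time besides 3 and 7 h at which its libraries did not overlap. LYAR, a nucleolar zinc finger protein, overlapped between agents at all 6 times, with 19.5 to 27.5 CPM in EtOH and 21.2 to 27.4 in dex.

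The fold changes of the members varied with the G+C content of their transcripts. Across the 40 members, Pearson's r between G+C content and log2 fold change was -0.60 at 1 h, 0.60 at 3 h, 0.22 at 5 h, 0.54 at 7 h, -0.70 at 9 h and 0.40 at 11 h. Over all 15337 genes the same correlations had the same signs and lay between -0.15 and 0.22. These are correlations across genes measured in the same 4 libraries, and genes are not independent replicates. Thus at 9 h the members of low G+C, such as HEATR1 (41.8%), tended to be above 0 and those of high G+C, such as RRP9 (60.9%), below. At 3 h the order was turned.

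**Figure D3:**
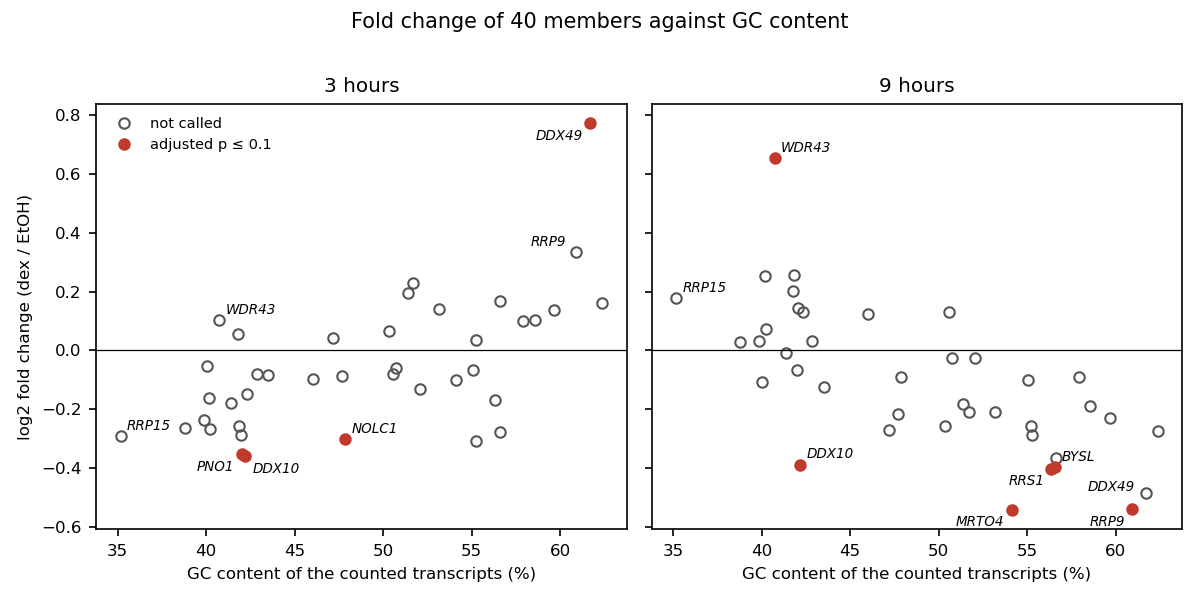
Log2 fold change, dex over EtOH (y axis), against the G+C content in percent of the counted transcripts (x axis) for the 40 members at 3 h (left) and 9 h (right), with called members in red. The points slope upward at 3 h (r = 0.60) and downward at 9 h (r = -0.70), and WDR43 and DDX10 lie off the slope at 9 h, the first far above and the second below other members of like G+C.

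A G+C trend was also fitted per library and taken out, an alternative chosen after seeing the data. Of the 28 calls, 21 stayed and 5 others appeared (NOB1 and BYSL lower at 3 h, DDX21 higher at 7 h, NCL lower at 9 h and WDR43 higher at 11 h). At 3 h 4 members were then lower and 1 higher, beside 5.37% and 8.41% of all genes. At 5 h 5 were lower and 2 higher, beside 12.7% and 12.8%. At 7 h 2 were lower and 6 higher, beside 12.7% and 15.5%. At 9 h 4 were lower and 1 higher, beside 9.25% and 10.7%. At 11 h 0 were lower and 1 higher, beside 5.17% and 7.54%. All 7 calls at 5 h stayed, as did those of WDR43, which was then also called at 11 h (0.43, edgeR adjusted p = 0.0119). The calls of PNO1 at 3 h, of POLR1A, DDX10, DDX49 and RRP15 at 7 h and of RRP9 and BYSL at 9 h were lost. The log2 fold changes of these pairs stayed of the same sign, at -0.28 for PNO1, 0.18 for POLR1A, -0.18 for DDX10, 0.37 for DDX49, -0.25 for RRP15, -0.38 for RRP9 and -0.30 for BYSL. The correlation over the members was then -0.36 at 1 h, 0.22 at 3 h, 0.03 at 5 h, 0.28 at 7 h, -0.38 at 9 h and -0.03 at 11 h. The part of the G+C trend in the remaining differences was not tested.

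The counts of calls also turned on single libraries. At 11 h, leaving out dex replicate 1, so that the library of highest slope stood alone for dex, gave 18 calls among the 40 (6 lower and 12 higher), beside 14.0% and 18.5% of all genes. Leaving out that library, dex replicate 2, gave 2 lower (DDX49 and NOB1) and 3 higher (NOP14, WDR43 and RRP1B), beside 8.07% and 10.4%. DDX49 was higher in the first and lower in the second, with values in dex replicates 1 and 2 of 13.5 and 27.2 CPM. At 9 h, leaving out EtOH replicate 1 gave 11 lower and 4 higher, beside 16.8% and 17.8% of all genes, and leaving out EtOH replicate 2 gave 8 lower and 2 higher, beside 12.7% and 14.2%. There WDR43 was the only call when either dex library was left out. Without dex 1 h replicate 1 only RRP15 was called at 1 h, higher, and without EtOH 3 h replicate 1 only DDX10 at 3 h, lower. Without EtOH 7 h replicate 1 the calls at 7 h fell from 11 to 4 (1 lower and 3 higher, beside 12.2% and 12.8% of all genes). The log2 fold changes of the 7 that lost the call were -0.15 for NOLC1, -0.24 for DDX10, -0.14 for RRP15, 0.23 for POLR1C, 0.17 for NAT10, 0.32 for DDX49 and 0.19 for RRP12. At 9 h MRTO4 stayed called without EtOH replicate 2, at -0.33. In each such fit the lone library was assumed to vary like the others. The share of all genes called also rose at 1 h without dex replicate 1. It fell at 3 h without EtOH replicate 1 and at 9 h without either dex library, so those counts are no result about the members alone.

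The calls of the members described above rested on single libraries to different degrees. Those of WDR43 at 7 and 9 h held when any 1 library was left out, whereas its call at 5 h was lost without dex or EtOH replicate 1. That of NCL at 5 h was lost without dex replicate 1 or EtOH replicate 2, and that of DKC1 at 5 h without dex replicate 2 or EtOH replicate 1. NOP58 lost its call at 7 h without dex replicate 1, and its call at 5 h when any 1 of the 4 libraries was left out. The calls of NOLC1 at 5 h, DDX10 at 3 h and POLR1A at 7 h were lost without either dex library or EtOH replicate 2, and those of NOLC1, DDX49 and POLR1C at 7 h without either dex library or EtOH replicate 1. DDX10, RRS1 and MRTO4 lost their calls at 9 h without either dex library, and DDX10 lost its call at 7 h when any 1 library was left out. The log2 fold change of POLR1A at 7 h was 0.12 without dex replicate 2 and 0.13 without EtOH replicate 2. NAT10 and RRP12 lost their calls at 7 h also without either dex library, GNL3 at 7 h without either dex library or EtOH replicate 2, and TSR1 at 5 h when any 1 library was left out. In every one of these fits the direction was kept.

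The groups of both agents can also be compared by overlap alone. At 9 h both dex libraries were below both EtOH libraries for 21 of 40 members, beside 28.7% of all genes, and above for 8, beside 26.4%. At 3 h the counts were 16 below and 4 above, beside 25.1% and 26.6% of all genes. At 7 h the balance was turned, with 7 below and 14 above, beside 29.8% and 28.9%. The counts were 7 below and 3 above at 1 h, beside 16.8% and 17.8%, 13 below and 6 above at 5 h, beside 27.7% and 28%, and 8 below and 8 above at 11 h, beside 23.6% and 22.2%. At 9, 3 and 7 h the fold change also correlated with G+C content (r = -0.70, 0.60 and 0.54), and its part in the balance was not tested.

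For many members the data limited how large a change could have been. The 95% interval of the log2 fold change lay within 0.5 on either side of 0 (1.41-fold) for 34 of 40 members at 1 h, 28 at 3 h, 33 at 5 h, 32 at 7 h, 27 at 9 h and 24 at 11 h. The same held for 43.8% of all genes at 1 h, 39.1% at 3 h, 34.3% at 5 h, 38.6% at 7 h, 27.6% at 9 h and 23.98% at 11 h. The biological coefficient of variation between replicates, over all genes, ran from 6.49% at 7 h, the time with most calls, to 12.7% at 11 h, the time with the widest intervals.

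Whether the dex effect on a member changed with time was tested in 1 fit of all 24 libraries. The test over 6 times called WDR43 and POLR1A, 2 of 40, beside 15.4% of all genes. Between 11 and 5 h no member was called by edgeR, beside 2.01% of all genes with a higher and 0.887% with a lower value at 11 h, and 5 members had an unadjusted p under 0.05. NCL had the smallest adjusted p among them, with log2 fold changes from -0.32 at 5 h to 0.14 at 11 h (edgeR adjusted p = 0.128). Any dex effect over the 6 times was called for 9 members, NOP58, DKC1, NOLC1, NCL, POLR1A, WDR43, DDX10, MRTO4 and RRS1, beside 32.6% of all genes.

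Without dex, 5 members varied over the 6 times in the 12 EtOH libraries, beside 3.3% of all genes: POLR1C, NOP14, NAT10, DDX49 and GRWD1. POLR1C had the smallest p (edgeR adjusted p = 0.0323), with its highest mean 1.77 times its lowest, at 5 h against 7 h. DDX49 had the widest range, 2.32-fold, from 3 h to 5 h (edgeR adjusted p = 0.0698). These 2 members were called higher with dex at 7 h, and DDX49 at 3 h, at times when their EtOH means were at or near their lowest. NAT10 was called higher at 7 h too, when its EtOH mean was 99.9 CPM, near its lowest of 99.5 at 1 h. With the G+C trend taken out, POLR1C alone was called over time in EtOH.

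Other genes of the pathway, from lists chosen with earlier results of these data known, also had small changes. Of 119 other biogenesis genes tested, none was called at 1 h. At 3 h 2 were higher and 4 lower, at 5 h 6 were higher and 9 lower, at 7 h 23 and 6, at 9 h 9 and 8, and at 11 h 1 and 0. The 23 higher at 7 h were 19.3% of the 119, beside the 14.7% of all genes, and at 3, 5, 9 and 11 h the shares higher and lower were below those of all genes given above. By role, the 7 h counts were 9 higher and 1 lower of 41 other small subunit factors and 12 higher and 3 lower of 51 other large subunit factors. Of 10 other snoRNP proteins none was called at 7 h, at 5 h 1 was higher and 2 were lower, and at 9 h 2 were lower. Of 17 other RNA polymerase I genes 2 were higher and 2 lower at 7 h. The 79 cytosolic ribosomal proteins, the products that the members help to assemble, had 13 higher and 7 lower at 3 h, 6 and 1 at 5 h, 12 and 7 at 7 h, 0 and 4 at 9 h and 1 and 0 at 11 h, with none called at 1 h. At 3 h these were 16.5% higher and 8.86% lower, beside 8.42% and 5.65% of all genes, at 7 h 15.2% and 8.86%, beside 14.7% and 13.5%, and at 9 h 0% and 5.06%, beside 10.8% and 8.96%. Their median log2 fold change was 0.10 at 3 h, 0.03 at 7 h and -0.12 at 9 h.

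**Figure D4:**
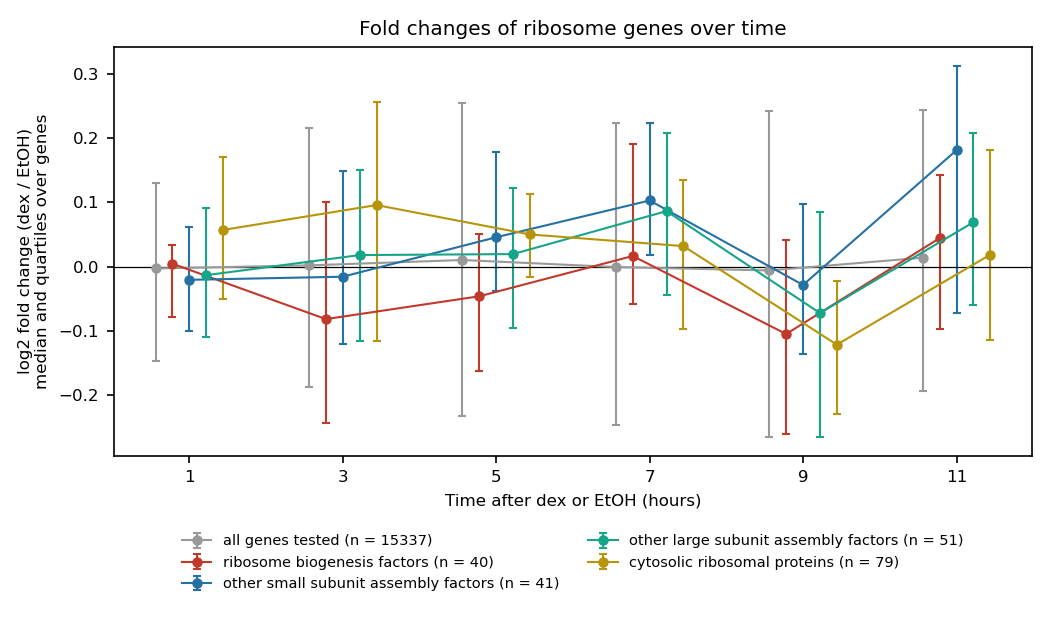
Median log2 fold change, dex over EtOH (y axis), at each time in hours (x axis) for the 40 members, 2 lists of other assembly factors, the cytosolic ribosomal proteins and all genes tested. Bars span the quartiles over genes, and the medians of the 40 members lie between -0.10 and 0.04.

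MYC, the activator named above, was higher with dex at 5, 7 and 9 h. Its group means were 197 ± 24.1 CPM with EtOH and 254 ± 0.554 with dex at 5 h (SD, n = 2), a log2 fold change of 0.36 (edgeR adjusted p = 0.00802). At 7 and 9 h the log2 fold changes were 0.24 and 0.36 (edgeR adjusted p = 0.0218 and 0.0421). At those 3 times the members' medians were -0.05, 0.02 and -0.10.

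Of the 41 members, 33 had a window of 250 bases before a RefSeq start (GRCh38.p14). The other members, NOP58, NOLC1, DDX49, RRP12, BOP1, RRP1B, DDX18 and RRS1, were not matched. A RefSeq start can differ from the GENCODE start, so some windows lie partly or wholly inside the GENCODE span of the gene. The letters CACGTG, the E-box that MYC is known to bind, read the same on both strands and were found in 3 of the 33 (9.09%), beside 6.33% of all 27305 promoters and 8.45% of those of genes tested. They are shown with up to 12 bases on each side as the only copies in these 33 windows, capitals marking the match. Other sequence of the members was not searched. The stretches are of LYAR (chr4:4290068-4290097, minus strand), NAT10 (chr11:34105602-34105628, plus strand) and UTP20 (chr12:101280083-101280104, plus strand). By the GENCODE spans, those of LYAR and NAT10 lie inside the gene, and only that of UTP20 lies before its start.
LYAR: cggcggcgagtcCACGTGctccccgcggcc
NAT10: aatgcgcttgcgCACGTGctgtctacc
UTP20: cttttttccgtcCACGTGaccc

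The whole palindrome of the glucocorticoid receptor is AGAACA, any 3 bases, then TGTTCT, and reads the same on both strands. It was found in 0 of 33 windows, in 1 of all 27305 and in 0 of the 10699 promoters of genes tested. The 0 of 33 thus does not set the members apart. One arm, AGAACA on either strand, was found in 4 windows (12.1%: NOP14, PES1, UTP20 and WDR43). The share was 12.7% of all promoters and 7.47% of those of genes tested. The PES1 window lies wholly inside the GENCODE span of the gene. Of the 3 members with CACGTG in their window, NAT10 was called once, higher at 7 h, and LYAR and UTP20 at no time. Of the 4 with AGAACA, WDR43 alone was called. A match of letters is a description and no binding site.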

How the data were processed

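Poly-A RNA from A549 cells was sequenced by the authors with stranded 50-base single-end reads. Per the study's methods the authors mapped reads with Bowtie to GENCODE 19 transcripts (hg19) and took read counts per transcript with samtools idxstats. The deposited table holds these raw counts. How reads matching several transcripts were placed is not given in the sources used here, so overlapping genes are uncertain.

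Transcripts were matched by Ensembl ID to GENCODE 29 (110262 of 119207, with 94.1% of the counts) and summed per gene. Genes passing filterByExpr over the 12 groups were tested with edgeR 4.0.16 (TMM, robust quasi-likelihood F-test, two-sided) in 1 fit of 4 libraries per time, as the study tested times separately. Benjamini-Hochberg adjustment ran over 15337 genes, with a threshold of 0.1. The interaction, the 11 against 5 h and the any-effect tests used all 24 libraries, and the EtOH test 12. Intervals use the moderated degrees of freedom. Displayed CPM share TMM factors over 24 libraries. Scripts were tested on simulated data. The members and lists were chosen with earlier results of these data known. For values per library, 2 members a role were picked by rule: the one with the highest EtOH mean CPM and the one with the smallest any-effect p (the next where these coincide). Values per library of DDX10, NOP58, DDX49, MRTO4 and RRP15 were added after they were seen. MYC is given by group means, and FKBP5 and TSC22D3 by log2 fold changes. Alternatives were DESeq2 1.42.0, other scaling, filters, threshold, fit and feature, a replicate block, each library left out, and a G+C offset (lowess span 0.3) added after seeing the data. Coordinates are GRCh38, since hg19 was not used here. No replicate pair agreed within sampling noise.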

Additional observations from a re-analysis of the deposited data

Results flagged for a closer look

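The dex effect on 2 of the 40 members differed between the 6 times by a test of the difference itself. The same test called 15.4% of all genes. For WDR43 the edgeR adjusted p of the interaction was 0.0583, with log2 fold changes of 0.11, 0.10, 0.30, 0.38, 0.65 and 0.36 at the times in order, from 1 h to 11 h. For POLR1A it was 0.0783, with -0.15, -0.13, 0.39, 0.21, -0.03 and 0.01. With the G+C trend taken out, NOLC1, NCL and GNL3 were called as well (edgeR adjusted p = 0.0646, 0.0377 and 0.0983). The share of all genes called with the trend taken out was not computed for this test.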

How the results depend on the processing

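Over the 12 alternatives, the 28 calls of a member at a time kept their direction throughout, and 215 of 336 refits kept the call while 121 lost it. With DESeq2, 2 members were called at 3 h, beside 3.01% and 4.86% of all genes lower and higher. At 5 h 4 were called (7.78% and 7.53%), at 7 h 2 (7.38% and 8.68%) and at 9 h 2 (4.97% and 6.96%). At a threshold of 0.05, 6 were called at 7 h, 0 for the interaction and 1 over time in EtOH. With 1 fit over 24 libraries, 3 were called at 7 h, beside 10% and 10.1% of all genes lower and higher. At 11 h that fit called 2 (WDR43 and DDX10), beside 7.22% and 8.93%. Its medians were 0.00811 at 7 h and -0.12 at 9 h. With the most counted transcript of each gene, 4 were called at 5 h, beside 7.16% and 7.55% of all transcripts tested lower and higher. At 7 h 5 were called, beside 7.61% and 8.6%. The medians were then -0.0702 at 5 h, -0.0130 at 7 h and -0.0187 at 11 h. With no filter, the medians were -0.0733 at 5 h, 0.000921 at 7 h and -0.13 at 9 h, and 7 were called for the interaction, 1 between 11 and 5 h and 12 over time in EtOH. With at least 10 counts in every library the median at 7 h was 0.00708. With the G+C offset, added after seeing the data, the median was 0.0566 at 7 h and -0.00258 at 11 h. Then 1 member was called at 11 h, beside 5.17% and 7.54% of all genes lower and higher. The offset also gave 5 calls for the interaction, 4 between 11 and 5 h (NOP58, NCL, POLR1A and TSR1) and 1 over time in EtOH. The cause of these shifts was not tested. For the threshold of 0.05, and for the interaction, 11 against 5 h and EtOH tests outside the main fits, shares of all genes were not computed. DESeq2 also called fewer of all genes at all 6 times, such as 7.38% lower and 8.68% higher at 7 h.

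Leaving out 1 library at a time gave 0 to 2 calls at 1 h, 1 to 5 at 3 h, 2 to 3 at 5 h, 1 to 11 at 7 h, 1 to 15 at 9 h and 0 to 18 at 11 h. The share of all genes called also moved with the library left out. The members' medians ran from -0.0625 to 0.0317 at 1 h, -0.146 to -0.0272 at 3 h, -0.0771 to -0.0310 at 5 h, 0.0229 to 0.0579 at 7 h, -0.140 to -0.0721 at 9 h and -0.00836 to 0.0877 at 11 h. The interaction gave 0 to 9 calls, with 9 without dex 11 h replicate 1 and 0 without dex 3 h replicate 2, either dex library of 9 h, or EtOH replicate 1 of 1 or 3 h. The 11 against 5 h test gave 0 to 1, and the EtOH test 0 to 14, with 14 without EtOH 9 h replicate 1 and 0 without EtOH 7 h replicate 1.

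The study's methods name a paired vehicle control, and whether the replicate numbers mark the pairs is not known. The correlation of same-numbered libraries' deviations ran from -0.07 to 0.16 over the 6 times, with the highest values at 1 h (0.16) and 9 h (0.11). The main fits did not use the replicate numbers, and pairing was not settled by these values. With the replicate block, 1 member was called at 1 h (beside 1.6% and 2.2% of all genes lower and higher), 2 at 3 h (beside 4.71% and 7.43%), 12 at 9 h (9 lower and 3 higher, beside 13.3% and 15.3% of all genes lower and higher) and 1 between 11 and 5 h, and no other count moved by over 1.5 times. With 2 libraries a group, a member that was not called may still have changed. Intervals were widest for RRP9, DDX49, NOP16 and PPAN, with at most 285 counts in a library.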
